A study of Mus musculus with 3 samples.

Results

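The region lies on mouse chromosome 17 from 66520001 to 66580000 (mm9, 1-based), a stretch of 60 kb that gave 11798 distinct small RNA sequences, or 0.5317% of the 2219118 in the list. Its members are all listed sequences of chromosome 17 whose start falls in that range. The range itself was selected on measured values, the number of sequences in windows of 20 kb and their mix of strands, so both are given here as a description only. Small RNAs were sequenced from 3 immunoprecipitates of C57BL/6 testes, 1 library per group. These were Mili from Tdrd1-knockout testes at 15 days after birth (dpp), Tdrd1 from adult testes with no genotype given, and Mili from adult wild-type testes. The labels do not name the knockout allele, the number of animals behind each library or whether tissue was pooled. RNA of about 28 to 30 nt was cut from a gel beside a labelled spike, so the gel also set which lengths could be recovered. The list used here pools the 3 libraries and carries neither read numbers, nor strand, nor library, so the depth of each library is unknown and no group could be set against another. Each distinct sequence counts once, however often it was read.

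Mili, encoded by Piwil2, belongs to the Piwi proteins of germ cells, and Tdrd1 is a Tudor-domain protein that binds its methylated arginines. Piwi proteins carry piRNAs, which are cut from long single-stranded precursor RNAs, usually begin with U and are trimmed at their 3′ end. In the testis many piRNAs of the pachytene stage of meiosis come from a limited number of genomic clusters, some of which are read outward in both directions from a shared start. A piRNA can also guide the cutting of an RNA of the opposite strand, 10 nt from its own 5′ end, and the cut RNA can become a new piRNA. This ping-pong step leaves pairs whose 5′ ends overlap by 10 nt, 1 member often beginning with U and the other carrying A at position 10.

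The sequences below show what the list holds at the 5′ ends that carried most 3′ ends, 3 on each strand. Each is the longest listed sequence of its 5′ end, written 5′ to 3′ with T for U, and capitals mark the bases that lie beyond the 3′ end of the shortest listed sequence of that 5′ end.
plus strand, 13 3′ ends, chr17:66559013-66559044: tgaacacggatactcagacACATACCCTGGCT
plus strand, 12 3′ ends, chr17:66559894-66559924: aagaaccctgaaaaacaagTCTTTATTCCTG
plus strand, 11 3′ ends, chr17:66559891-66559921: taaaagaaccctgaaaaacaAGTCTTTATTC
minus strand, 11 3′ ends, chr17:66540136-66540166: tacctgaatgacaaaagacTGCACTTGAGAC
minus strand, 10 3′ ends, chr17:66542881-66542911: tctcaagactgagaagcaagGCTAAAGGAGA
minus strand, 9 3′ ends, chr17:66541092-66541120: taggaaataggatgaatggaGGTTGGGGG
Of these 6 sequences, 5 began with U and 1 with A.

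The label of a mixed-strand cluster held for the region as a whole but not within it. Strand was inferred from bases shared by overlapping sequences, and 11622 of the 11798 sequences (98.51%) received one, 6160 on the plus strand and 5462 on the minus strand (53.0% plus). The strands lay side by side, minus to the left and plus to the right, and they turned at position 66556012. On that division 11546 stranded sequences (99.35%) lay on the strand of their side, running outward from the turning point. The turning point was placed where it divides the strands best, so this share is the largest that such a division gives and only describes the region. In bins of 1 kb with at least 20 stranded sequences, 52 of 54 had less than 5% of their sequences on the minor strand. The region is therefore called divergent here.

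**Figure D1:**
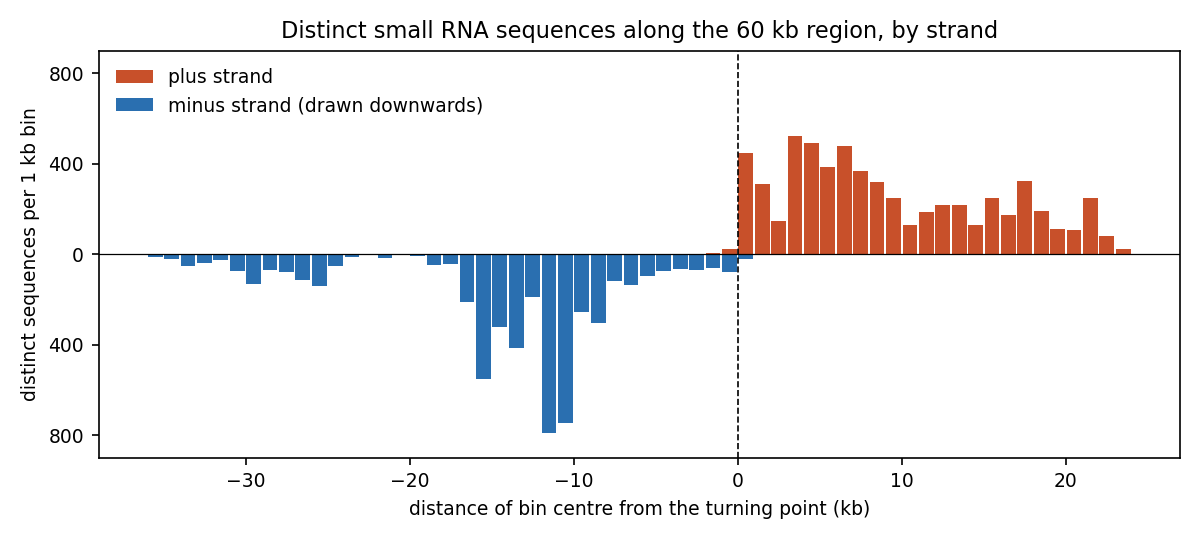
Number of distinct listed sequences per 1 kb bin against the distance from the turning point of the strands (kb), plus-strand sequences upward and minus-strand sequences downward. Minus-strand sequences lie to the left of the turning point and plus-strand sequences to the right, with 789 sequences in the richest minus-strand bin and 521 in the richest plus-strand bin.

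The left arm, 34 kb from 66520001 to 66554000, held 5290 minus-strand and 18 plus-strand sequences. The right arm, 23 kb from 66557001 to 66580000, held 5667 plus-strand and 12 minus-strand sequences. Between them lay 3 kb, from 66554001 to 66557000, where the strands met, with 475 plus-strand and 160 minus-strand sequences. In all, 31610 positions of the region (52.68%) were covered by a listed sequence, and 946 positions were covered on both strands.

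Neither arm was evenly filled. On the plus strand the bin from 66559001 to 66560000 was the richest with 521 sequences, followed by those starting at 66560001 with 492, 66562001 with 479, 66556001 with 448 and 66561001 with 385. The plus strand was thus richest in the first kilobases to the right of the turning point. On the minus strand the richest bin, from 66544001 to 66545000, held 789 sequences, and those starting at 66545001, 66540001, 66542001 and 66541001 held 745, 552, 413 and 322. The minus strand therefore peaked further from the turning point, and the bin next to the meeting zone, from 66553001 to 66554000, held 69. Farther left, 5 successive bins from 66532001 to 66537000 held 48 sequences in all. Both edges of the region were sparse. At the left edge the first bin inside held 19 sequences and the bin outside 1, and at the right edge the last bin inside held 27 and the next 28. The 20 kb outside held 155 sequences on the left and 111 on the right.

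The sequences had the size of Mili-bound piRNAs and were slightly shorter than the rest of the list. Their mean length was 26.28 ± 1.76 nt in the region, against 27.14 ± 1.686 nt in the rest of the list (SD over sequences). The 98 other windows among the 100 richest of 20 kb had means from 26.1 to 27.5 nt with a median of 26.41 nt, so the region lay within their range. Lengths of 24 to 28 nt, the range of Mili-bound piRNAs, made up 85.43% of the region (95% interval 84.78 to 86.06%), 82.74% of the other rich windows and 78.16% of the rest of the list. Lengths of 29 to 32 nt made up 8.637% (8.136 to 9.158%) in the region, 11.15% in the other rich windows and 19.95% in the rest of the list. These intervals are exact Clopper-Pearson intervals and cover counting error only, and overlapping sequences of 1 precursor are not independent. The arms were alike, with 26.24 ± 1.744 nt on the minus strand of the left arm and 26.3 ± 1.784 nt on the plus strand of the right arm. The most common length was 26 nt in the left arm and 27 nt in the right.

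**Figure D2:**
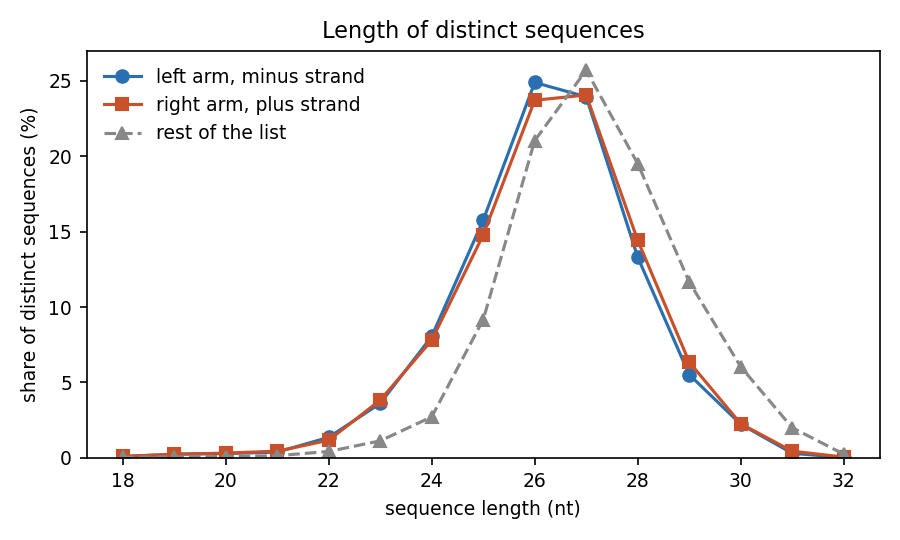
Share of sequences (%) at each length (nt) for the arms of the region and for the rest of the list. The arms have nearly the same profile, with 26 and 27 nt as the commonest lengths, and hold more sequences of 24 and 25 nt and fewer of 29 and 30 nt than the rest of the list.

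U was the first base of 61.21% of the sequences of 24 to 32 nt in the region (95% interval 60.3 to 62.12%, 6793 of 11098), against 68.75% in the rest of the list and 60.14% in the other rich windows together. By window the others had a median of 61.3%, with quartiles of 58.71 and 65.33%, so the region's share was that of a usual rich window. The left arm's minus strand had 59.28% (57.9 to 60.65%) and the right arm's plus strand 62.81% (61.5 to 64.12%). Along the region the share varied far more than between its arms. Over the 47 bins of 1 kb with at least 50 sequences it averaged 63.3 ± 9.875% (SD over bins), and the arms, at 61.8 ± 10.74% over 22 bins on the left and 63.7 ± 8.47% over 22 bins on the right, did not differ beyond the spread of their bins. The lowest and the highest bin were neighbours on the left arm. The bin from 66528001 to 66529000 had 40.26% and the bin from 66527001 to 66528000 had 85.92%.

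The share beginning with U went with the number of 3′ ends that a 5′ end carried. The region held 5591 distinct 5′ ends with 2.079 ± 1.539 3′ ends each (SD over 5′ ends), against a median of 2.136 over the other rich windows, and 51.17% of its 5′ ends carried 1 3′ end. Among 5′ ends of sequences of 24 to 32 nt, U came first in 43.52% of those with 1 3′ end, 54.67% with 2, 65.59% with 3, 69.14% with 4 and 82.57% with 5 or more. The interval for 1 3′ end (41.69 to 45.37%) and that for 5 or more (78.18 to 86.4%) did not overlap. These intervals cover counting error only, and 5′ ends of 1 precursor are not independent. The shares by number of 3′ ends were not set against those of the other rich windows. The order was the same in both arms, from 43.82% to 80.7% on the left and from 43.55% to 83.33% on the right. The share also differed by length, with 57.28% at 26 nt, 64.33% at 28 nt and 84.21% at 30 nt. Without read numbers, abundant and rare 5′ ends cannot be told apart, so the part of abundance in this order was not tested.

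**Figure D3:**
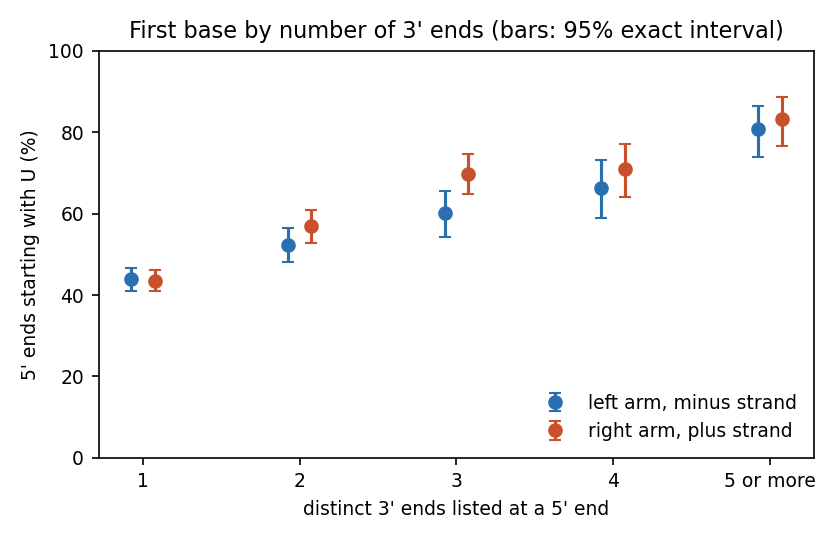
Share of 5′ ends that begin with U (%) against the number of distinct 3′ ends of the 5′ end, for the left arm (minus strand) and the right arm (plus strand), with exact 95% binomial intervals as bars. In both arms the share climbs from about 44% at 1 3′ end to over 80% at 5 or more.

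A at position 10 was slightly more frequent than A at position 9 in the region, but the left arm had no peak there. The region had A there in 33.35% of its sequences of 24 to 32 nt (32.47 to 34.23%), against 30.95% at position 9 (30.09 to 31.82%) and 31.79% at position 11 (30.92 to 32.67%). Position 2 had 33.38% and position 5 had 40.72%. The left arm's minus strand had A in 32.2% at position 10, 32.1% at 11 and 33.37% at 12. The right arm's plus strand had 34.44% at position 10, against 30.42% at 9 and 31.36% at 11. The other rich windows had a median of 32.3%. Among sequences that did not begin with U the share was 36.68% (35.24 to 38.14%) in the region, 34.04% in the other rich windows (33.81 to 34.27%) and 33.05% in the rest of the list (32.94 to 33.16%). The region's interval lay above both, but it covers counting error only, and sequences that share a 5′ end also share these bases. Among such sequences of the left arm's minus strand it was 35.78% (33.69 to 37.92%), an interval that takes in the 34.04% of the other rich windows. Among those of the right arm's plus strand it was 36.94% (34.81 to 39.11%), an interval above that share.

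Head-to-tail spacing of the sequences was not detected. Where the nuclease Zucchini cuts a precursor, the 3′ end of the untrimmed piece is followed at once by the U that begins the next one. The list holds 3′ ends as sequenced, which may have been trimmed, so these counts do not test that cutting. Over 5268 3′ ends whose flanks were covered by another listed sequence, the next base was U in 23.42% (22.29 to 24.59%), and at the other offsets from 9 bases before to 5 after the 3′ end it was U in 20.82 to 24.81%. A 5′ end directly followed a 3′ end in 964 pairs, against 1028 ± 47.12 pairs at distances of 2 to 40 nt (SD over distances, range 956 to 1115). The count at distance 1 thus lay at the low end of the other distances.

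Opposite-strand pairs of sequences were most numerous at an overlap of 10 nt. The pairs of 5′ ends with the largest product of their numbers of listed sequences are printed below, as the sequences on which this count rests most. There are 5 of them, because the last 2 tied. Capitals mark the 10 nt by which the 5′ ends overlap, and each sequence is the longest one of up to 30 nt at its 5′ end.
plus, 4 sequences, chr17:66556168-66556197: TCCAAGATGAggtactgagtgagatatgct
minus, 4 sequences, chr17:66556150-66556177: TCATCTTGGAcagtggggtagttaatgt
plus, 4 sequences, chr17:66556213-66556241: TGACATTTTGacatttctcactttggggc
minus, 3 sequences, chr17:66556195-66556222: CAAAATGTCAtgtggagatgaaggcagc
plus, 6 sequences, chr17:66556281-66556310: TATCCTAGAActccctcaagaagacaaggc
minus, 2 sequences, chr17:66556263-66556290: TTCTAGGATAccagggctatgcagagaa
plus, 6 sequences, chr17:66556286-66556314: TAGAACTCCCtcaagaagacaaggctggc
minus, 1 sequence, chr17:66556268-66556295: GGGAGTTCTAggataccagggctatgca
plus, 6 sequences, chr17:66571917-66571946: TGTTCAGCGTtgaagcatcaggactgctca
minus, 1 sequence, chr17:66571902-66571926: ACGCTGAACAgtgataacccttccc
All 5 plus-strand members began with U, as did 2 of the minus-strand members, and all 5 minus-strand members had A at position 10. A at position 10 of 1 member follows from U at position 1 of the other wherever the pair matches, so it is no separate measure.

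Across the region 84 pairs of sequences of 24 to 32 nt overlapped by 10 nt, against 24.47 ± 10.27 pairs at overlaps of 1 to 9 and 11 to 20 nt (SD over overlaps). The next highest overlap was 5 nt with 43 pairs. The ratio was 3.432. The 84 pairs came from 18 pairs of 5′ ends, so they are not independent and no interval is given for the ratio, and the count was concentrated in 1 place. The bin from 66556001 to 66557000, just right of the turning point, held 51 of the 84 pairs, and without that bin the ratio was 3.232. Counting every 5′ end only once left 18 pairs at 10 nt, against 8.895 ± 3.107 at the other overlaps and 16 at 5 nt, a ratio of 2.024. The ratio by sequences thus weighs 5′ ends with several 3′ ends, and by 5′ ends the 10-nt overlap was the highest by 2 pairs. The parts of the region differed in this count. Where the strands meet, 8 pairs of 5′ ends overlapped by 10 nt, and 8 also by 3 nt and by 5 nt. The left arm had 2 at 10 nt, against a highest value of 3 at the other overlaps. Only in the right arm was 10 nt the highest, with 8 against 6. Of the 18 pairs, 14 had U first on 1 member, 3 on both and 1 on neither.

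**Figure D4:**
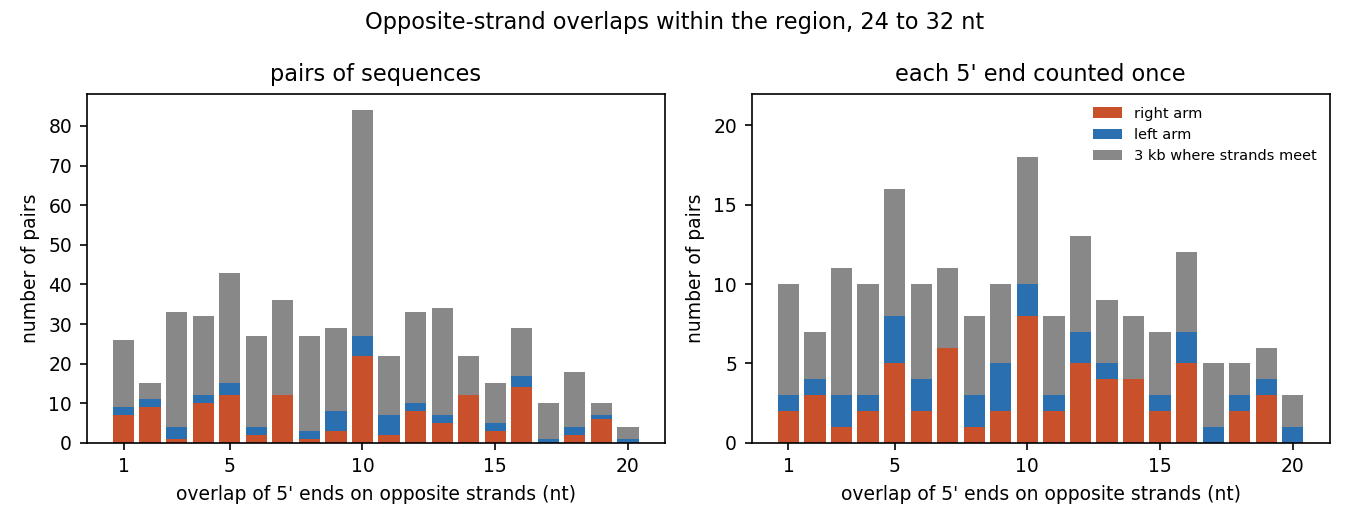
Number of opposite-strand pairs against the overlap of their 5′ ends (nt), counted by sequences on the left and with each 5′ end once on the right, stacked by the right arm, the left arm and the 3 kb where the strands meet. The 10-nt overlap reaches 84 pairs by sequences and 18 by 5′ ends, against 43 and 16 at 5 nt.

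Few sequences ran against the strand of their arm, and most of those in the right arm had a partner at 10 nt. In the right arm 12 minus-strand sequences, each with its own 5′ end, stood among 5667 plus-strand ones, and 8 of the 12 had a plus-strand 5′ end opposite them at an overlap of 10 nt. At the other overlaps the mean was 2.684 of 12 and the highest was 6. A at position 10 was found in 10 of the 12 (83.33%, 51.59 to 97.91%) and U first in 4. These 10 include all 8 with a partner, whose A follows from the partner's U and is no separate measure. All 8 plus-strand partners began with U, and 1 of the 8 minus-strand sequences did. In the left arm 18 plus-strand sequences stood among 5290 minus-strand ones, and 2 of the 18 had such a partner, against a mean of 1.368 and a highest value of 3 at the other overlaps. The difference between the arms rests on 12 and 18 sequences and was not tested, and it was noticed after the values were seen.

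The right arm's minus-strand sequences with a partner at 10 nt are printed here because partners at 10 nt were most frequent among them, apart from the one at 66571902 shown with the pairs. Capitals mark the first 10 nt, which pair with the plus-strand partner.
minus, chr17:66557122-66557145: CAGAACAGTAcacccatgccaaca
minus, chr17:66563146-66563173: ACTTGGACAAgactggtctgcttggcac
minus, chr17:66568036-66568062: AACAACAGTAccagtgatgttcaaggc
minus, chr17:66570616-66570640: ATATGTAGCAgtgagggattgggaa
minus, chr17:66570829-66570853: CACCATATCAgagacatgaggattc
minus, chr17:66571510-66571535: GATTATATTAaagacttgtggaggcg
minus, chr17:66576031-66576056: TAGCACAGGAgctctggtaggtggtg
They were spread over most of the arm, from 66557122 to 66576056, and did not share a 5′ end.

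Such pairing of minor-strand sequences was also found in the other rich windows. In bins with less than 5% of their sequences on the minor strand, 22 of the region's 50 minor-strand sequences of 24 to 32 nt (44.0%, 29.99 to 58.75%) had a partner at 10 nt. Without the bin from 66556001 to 66557000, where the strands meet and the minor strand held 4.478%, it was 10 of 30 (33.3%, 17.29 to 52.81%), a count added after seeing the data. Across the other rich windows 54.4% had one (733 of 1347, 51.71 to 57.1%). At the other overlaps the mean share was 19.89% in the region, or 13.51% without that bin, and 26.14% in the other windows. The highest share at any of those overlaps was 36.0% in the region, 26.67% without that bin and 30.96% in the other windows. In the region, with or without that bin, this highest share lay within the interval of the share at 10 nt. In the other windows it lay below that interval. Minor-strand sequences carried A at position 10 in 68.0% in the region and 70.53% in the other windows, and they began with U in 52.0% and 41.13%, with overlapping intervals in both cases. Where a partner at 10 nt begins with U, the A at position 10 follows from the pairing, and such sequences were not counted apart.

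Annotated exons matched 2040 of the region's sequences (17.29%, 16.61 to 17.99%), nearly all of them on the antisense strand, since 13 sequences (0.1102%) matched in the sense direction. In the other rich windows together 17.17% matched an exon and 15.08% in the sense direction. These windows differed widely in the share matching an exon, with a median of 4.758% and quartiles of 0.08382 and 62.17%. Genes were matched by sequence to GENCODE vM21, which describes another build (GRCm38), so the coordinates below are those of the matching sequences on mm9. All 5 genes matched had 5 or more sequences.

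The long noncoding RNA CT025671.4 (ENSMUSG00000117296.1), annotated on the plus strand, took most of these matches. It matched 1786 antisense and 2 sense sequences between 66542723 and 66549145, in the richest stretch of the left arm, which is 518.3 sequences per kb of transcript, against 196.6 per kb over the region. These densities are not alike, since the first counts transcript length alone and the second all 60 kb, sparse stretches included. In the same stretch the 1 kb bin from 66544001 to 66545000 held 791 sequences. Of the sequences of 24 to 32 nt that matched CT025671.4, 50.12% began with U, against 59.28% for the whole minus strand of the left arm. The small RNAs thus came from the strand opposite to the annotated transcript. RefSeq's promoter window of the noncoding gene Gm20742 (GRCm38) matched a further 16 sequences, all antisense, between 66541633 and 66541805. In RefSeq's gene order Gm20742 lies with the pseudogenes LOC115488758 and Gm17891 between Ddx11, a DNA helicase gene, and Mtcl1, which encodes a microtubule crosslinking factor. No sequence of the region matched a RefSeq miRNA (0 matches).

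The other matches were to processed pseudogenes, which are copies of mRNAs pasted back into the genome. CT025671.2, annotated on the minus strand, matched 160 sequences between 66576759 and 66577357 in the right arm, all of them antisense, and 76.16% of those of 24 to 32 nt began with U. CT025671.5, annotated on the plus strand, matched 80 antisense and 2 sense sequences between 66537601 and 66539025 in the left arm, with U first in 65.0%. CT025671.3, annotated on the minus strand, was the exception, with 9 sense sequences and 1 antisense between 66537032 and 66537310.

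The antisense sequences of CT025671.2 were close to antisense of Pphln1, a gene of chromosome 15. Pphln1 encodes periphilin, which in human cells belongs to the HUSH complex that silences inserted DNA. Of the 160 sequences 5 matched Pphln1 mRNA exactly, 50 with 1 mismatch, 96 with up to 3 mismatches, these included, and 64 had more than 3. The exact matches lay between 66577047 and 66577073, and the longest is printed with bases 2 to 8, by which a piRNA first pairs with its target, in capitals.
plus, chr17:66577048-66577073: cTCTCATGtccctgtagtcaggctgc
The list held 284 sense sequences of Pphln1 mRNA, none placed on chromosome 17 (0 of 284), and 12 antisense ones, 5 of which are placed in the region. Those 5 match both the pseudogene and the mRNA, so their place of origin is ambiguous. Between the sequences of the pseudogene and the sense sequences of the mRNA, 14 pairs of 5′ ends overlapped by 10 nt with up to 3 mismatches, against a mean of 6.789 at the other overlaps and a highest value of 14. The 10-nt overlap was thus not above every other one.

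In first base, mean length and ratio of pairs at 10 nt by sequences, the region as a whole lay within the range of the other rich windows. The windows of 20 kb that make it up ranked 31 (66540001 to 66560000, 5822 sequences, 25.37% plus), 38 (66560001 to 66580000, 4751 sequences, 99.77% plus) and 124 (66520001 to 66540000, 1225 sequences, 0.8569% plus) among all windows by number of sequences. The last of these had 1.737 3′ ends per 5′ end, below the lowest of the other rich windows at 1.77. The most even of the other rich windows were on chromosome 15 from 59100001 with 48.12% plus, on chromosome 7 from 77040001 with 52.21% and on chromosome 5 from 113760001 with 45.1%. Within bins of 1 kb the minor strand held 0.9906% in the window of the region where the strands meet, against 1.1, 2.873 and 1.834% in these 3, so their strands lay side by side as well. The ratio of pairs at 10 nt, counted by sequences, was 3.432 in the 60 kb of the region and 3.507 in its window where the strands meet. In the 3 even windows it was 3.41, 2.327 and 2.415. With each 5′ end counted once, the order changed, with 1.786 in the region's window where the strands meet, against 1.9, 1.566 and 2.003. Over the 31 other rich windows with at least 100 pairs at overlaps of 1 to 20 nt the ratio by sequences had a median of 3.07 and a range of 1.125 to 4.534.

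**Figure D5:**
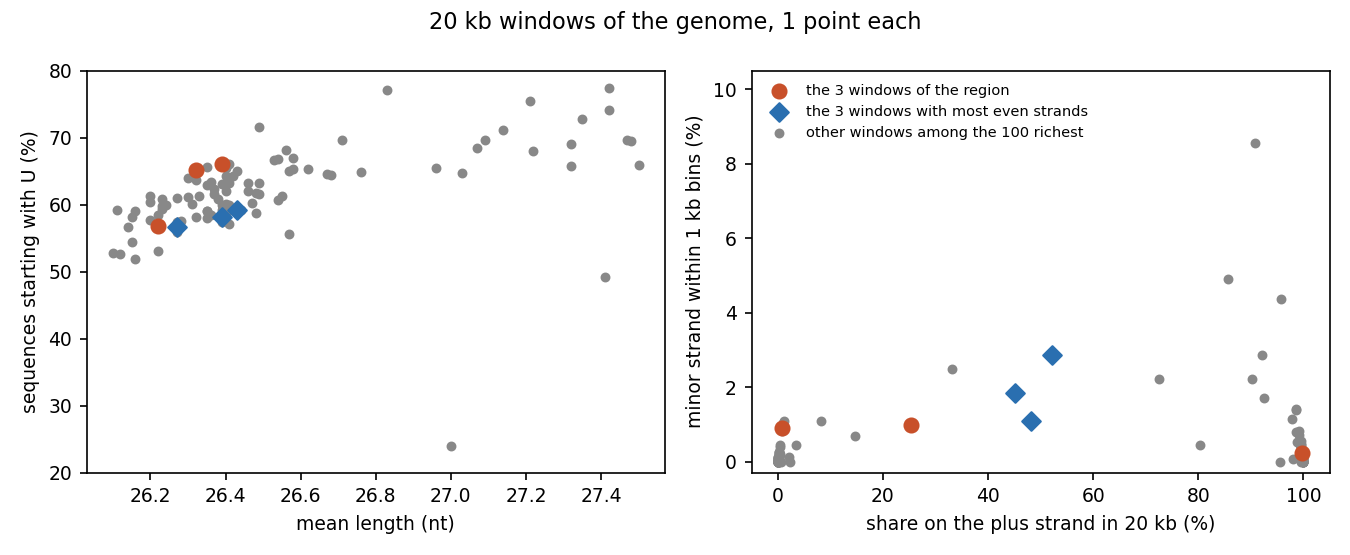
Left, share of sequences beginning with U (%) against mean length (nt). Right, share on the minor strand within 1 kb bins (%) against the share on the plus strand over 20 kb (%). Each point is 1 window of 20 kb, for the 3 windows of the region, the 3 windows with most even strands and the other windows among the 100 richest. The windows of the region lie within the range of the others on all 4 measures.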

How the data were processed

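The list was deposited by the authors as 1 table for the series, with each distinct small RNA sequence, its chromosome and its interval; positions are on NCBI mouse build 37 per the file headers, and mm9 per the submitters' processing notes. How reads were aligned, with what mismatches, and how multiply placed sequences were handled was not given in the sources used here.

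Strand was assigned from stretches of 12 nt that overlapping sequences share, which covered 79.2% of the list. In the region 0 of 305335 compared bases differed from the most common base. That count includes positions covered by 1 sequence, which cannot differ, and strand was called from such agreement, so it is no separate check. Of 23088 stretches of 20 nt, 20 occurred at more than 1 place. First base, position 10 and overlaps used 24 to 32 nt. Genes were matched over the whole length of a sequence to GENCODE vM21 transcripts from an exact seed of 18 nt. Scripts ran in python 3.11.15 with numpy 2.4.6, pandas 2.3.3 and scipy 1.17.1, and strand assignment was tested on simulated data.

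Genes were named from 5 matching sequences; 5′ ends, pairs, bins and windows were named by rank. The members and these rules were chosen with earlier results of these data known. Pphln1 was followed up after its matches were seen.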

Additional observations from a re-analysis of the deposited data

Results flagged for a closer look

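The region also held 700 sequences of 18 to 23 nt, below the lengths used for the base and overlap measures, which is 5.933% of its sequences, against 6.098% in the other rich windows and 1.874% in the rest of the list. They were picked out because they lie outside the main measurement and above the limit that a count of 0 allows (3 sequences, 0.02543%). U came first in 64.86% of them, 431 were 23 nt long, and 599 of the 694 with a strand (86.31%) shared their 5′ end with a longer listed sequence. Shared 5′ ends were common in the region, with 1.988 3′ ends per 5′ end at 24 to 32 nt. The share with a shared 5′ end among longer sequences was not counted, and a strand was given only where sequences overlap. Whether the sequences of 18 to 23 nt were bound at this length or shortened later was not tested.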

How the results depend on the processing

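Of 22 alternatives, 13 left the value within its 95% counting interval (for means, that of the mean; for the ratio, a Poisson one that takes pairs as independent), and 9 moved it. With each 5′ end counted once, the share starting with U was 53.11%, the mean length 26.35 nt and the ratio of pairs at 10 nt 2.024; the last was 2.468 when the 3 kb where the strands meet was also left out, an alternative chosen after seeing the data. Without exon matches U came first in 62.93%. Among sequences not starting with U, A stood at position 10 in 36.68%. With 24 to 32 nt only, the mean length was 26.53 nt and the number of 3′ ends per 5′ end 1.988. Sense exon matches alone made up 0.1102%, since nearly all matches were antisense. The cause of the other shifts was not tested beyond what each setting leaves out. No paired analysis was possible because each group had 1 library and the list pools them. Depth per library is unknown, and other genome positions of a sequence were seen only where an annotated transcript holds them, since no mm9 genome was used here.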
